A study of Mus musculus with 6 samples.

Results

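Cholesterol synthesis in tumours of mice with and without Stat2 was followed through 7 genes chosen by name: Srebf2, Hmgcs1, Idi1, Sqle, Dhcr7, Insig1 and Ch25h. For each gene the probe set with the highest mean over the 6 arrays was used, among those annotated to that gene alone. This gave a value for 6 of the 7, out of 22180 genes measured in this way. The probe set of Idi1, which encodes isopentenyl-diphosphate isomerase, also names a predicted gene, so Idi1 has no value here.

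The samples were 6 melanomas grown from B16-F1 cells, a pigmented mouse melanoma line, implanted on the dorsal flank of C57BL6 mice and taken at day 20. There were 3 tumours from hosts labelled Stat2 KO and 3 from WT hosts, each measured on an Affymetrix array of its own. Only the hosts differ in genotype: the implanted cells are not labelled as lacking Stat2, so host cells without Stat2 and melanoma cells were measured together. The labels give neither the kind of Stat2 deletion nor the age of the mice. All values are deposited RMA expression values on the log2 scale, and all differences are Stat2 KO host minus WT host.

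Cells make cholesterol from acetyl-CoA through the mevalonate pathway, squalene and a series of sterol intermediates. The transcription factor SREBP2, encoded by Srebf2, switches on most genes of the pathway when sterols in the endoplasmic reticulum run low, and INSIG1 holds it back when sterols are plentiful. Ch25h encodes cholesterol 25-hydroxylase. Its product, 25-hydroxycholesterol, restrains SREBP2 processing, and Ch25h is known as an interferon-induced gene of macrophages, which makes the set of interest in hosts that lack a transcription factor of type I interferon signalling.

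The promoters of the enzymes and of Ch25h are unlike each other in the letters searched, and the 250 bases before the start of Hmgcs1, Srebf2 and Ch25h are shown for that contrast. Sequences and coordinates are from RefSeq, build GRCm38.p6, on the strand of the gene. Capitals mark the core of the sterol regulatory element, TCACNCCAC, bound by SREBP, and the CCAAT box bound by NF-Y, read on either strand, so that ATTGG is a CCAAT box on the other strand.

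Hmgcs1, chr13:119690101-119690350, plus strand: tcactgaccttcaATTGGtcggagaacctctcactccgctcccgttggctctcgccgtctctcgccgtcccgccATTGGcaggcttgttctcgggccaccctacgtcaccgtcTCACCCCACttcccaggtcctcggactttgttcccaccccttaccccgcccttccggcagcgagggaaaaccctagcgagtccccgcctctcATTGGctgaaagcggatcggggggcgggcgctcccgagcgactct
Srebf2, chr15:82147019-82147268, plus strand: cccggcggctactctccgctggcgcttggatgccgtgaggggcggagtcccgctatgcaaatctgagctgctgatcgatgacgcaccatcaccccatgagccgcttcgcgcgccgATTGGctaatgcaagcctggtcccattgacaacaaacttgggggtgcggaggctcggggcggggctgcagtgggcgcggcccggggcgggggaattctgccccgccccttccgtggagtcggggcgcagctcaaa
Ch25h, chr19:34475149-34475398, minus strand: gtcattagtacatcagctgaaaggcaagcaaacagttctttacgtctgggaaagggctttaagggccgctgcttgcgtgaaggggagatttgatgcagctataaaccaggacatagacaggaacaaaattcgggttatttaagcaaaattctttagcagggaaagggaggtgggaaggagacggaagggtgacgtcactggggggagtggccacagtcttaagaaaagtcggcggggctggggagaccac

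The stretch before Hmgcs1 holds 1 sterol element, which begins 137 bases before the start, and 3 CCAAT boxes. That before Srebf2 holds 1 CCAAT box and no exact match of TCACNCCAC, and that before Ch25h holds neither motif. Only exact matches were counted, so variant elements were missed. The stretch before Srebf2 holds tcaccccat, which differs from TCACNCCAC in its last base and was not counted. Over the full windows, 250 bases before to 50 after each start, the CCAAT box was found for 14 of the 15 cholesterol synthesis enzymes in the table, against 41.1% of 27025 genes. The GC box GGGCGG, bound by Sp1, was likewise found for 14 of 15 enzymes, against 38.2% of genes. The window of Ch25h held neither of these, and it also lacked the core of the interferon-stimulated response element (GAAA, any 2 bases, GAAA), which stood in 3.99% of genes. TCACNCCAC stood in 1 of the 15 enzymes (Hmgcs1) and in 1.44% of genes. Both strands were searched, and 0 pairs of matches of different motifs overlapped in the windows of the members and enzymes. Sqle has no entry in this promoter table. These matches describe the letters in the windows and not the binding of a factor in the tumours.

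Whether the absence of Stat2 in the host goes with another level of the pathway was asked by comparing the 3 Stat2 KO hosts with the 3 WT hosts. None of the 6 measured members passed the limma adjusted p threshold of 0.05, where 0.00902% of all genes passed. Adjusted p-values of the members ranged from 0.525 to 0.932. Of the 6, 5 were higher and 1 lower in Stat2 KO hosts, where 54% of all genes were higher. The median difference was 0.097, against a median of 0.021 over all genes. The share of genes higher differed by level. It was 76.3% near the level of Ch25h and 24.1% in the range of level of the cholesterol synthesis enzymes. Taken over the 6 members, the 95% intervals of the limma fit, not adjusted for the number of genes, reached from -0.59 to 0.62, or from 0.665 to 1.54 times the WT level.

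**Figure D1:**
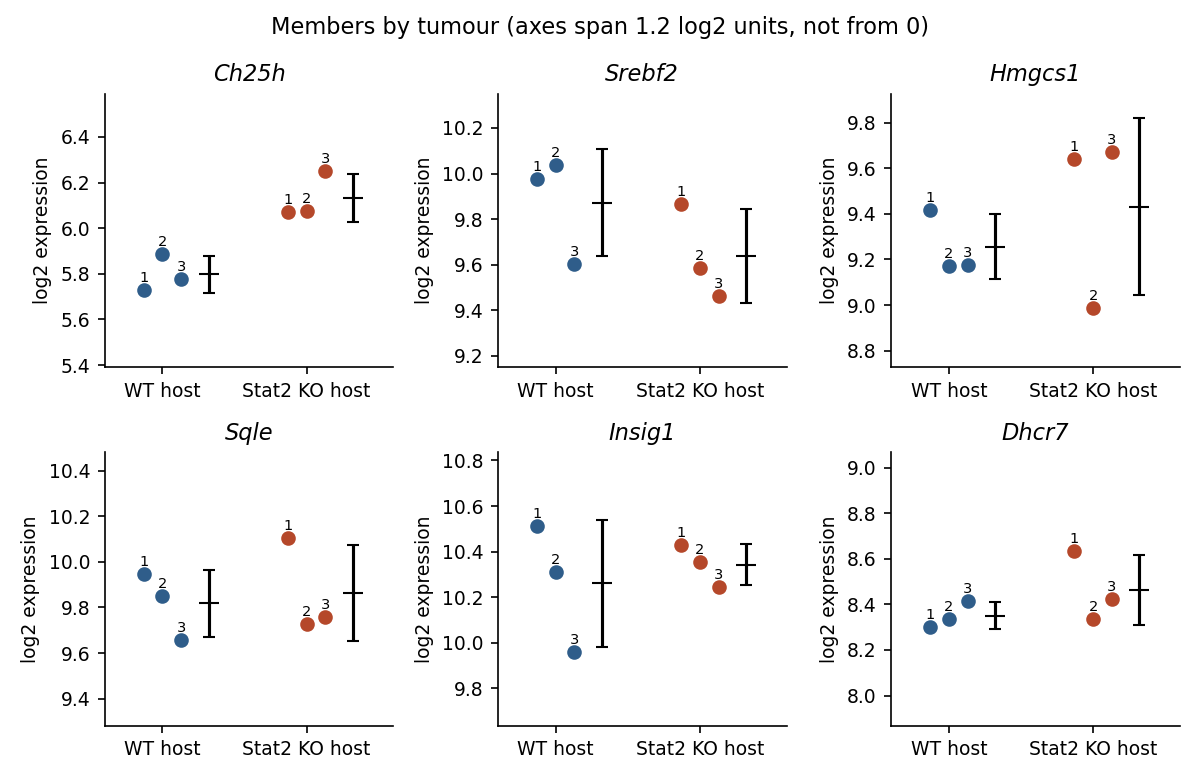
Log2 expression (vertical axis, spanning 1.2 log2 units and not starting at 0) of the 6 measured members in each tumour, by host genotype. Points are tumours numbered by replicate, and the bar beside each group is the mean ± SD of 3 tumours. Ch25h is the member whose groups do not overlap, with 6.07 to 6.25 for Stat2 KO and 5.73 to 5.89 for WT hosts.

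Ch25h read 6.07, 6.08 and 6.25 in the Stat2 KO hosts, and 5.73, 5.89 and 5.78 in the WT hosts, in replicate order. Every Stat2 KO tumour lay above every WT tumour, which was so for 8.23% of all genes. The means were 6.13 ± 0.104 and 5.80 ± 0.081 (SD, n = 3 each), a difference of 0.33 (SE 0.132, limma adjusted p = 0.525), or 1.26 times the WT level. An unadjusted limma p of 0.0258 went with it, and 5.34% of all genes passed 0.05 unadjusted in this direction. The exact permutation test over the 6 tumours gave p = 0.1, the smallest it allows with 3 against 3.

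A second, dimmer probe set of Ch25h gave the same direction. It read 5.86, 5.69 and 5.92 in the Stat2 KO hosts, and 5.36, 5.57 and 5.67 in the WT hosts, again without overlap. Its difference was 0.29 (limma adjusted p = 0.588). Which stretch of the transcript each of the pair reads was not examined here.

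Both probe sets were dim. The mean of the brighter one over all tumours, 5.97, was above the level of 76.8% of 1088 olfactory receptor genes, taken here as a mark of background, and below their 95th percentile of 6.73. A Ch25h signal over background was therefore not shown for either genotype. The arrays also differed by level of expression. Among the 4030 genes within 0.25 log2 units of the mean level of Ch25h, the median difference was 0.11, 13.6% had all Stat2 KO tumours above all WT tumours, and 8.81% differed by at least as much as Ch25h. The olfactory receptor genes were higher in Stat2 KO hosts in 892 of 1088 cases, with a median of 0.22. The part of this shift in the difference of Ch25h was not tested beyond the normalizations, which gave 0.23 for Ch25h after a further quantile normalization, 0.23 after cyclic loess and 0.27 after median centring.

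**Figure D2:**
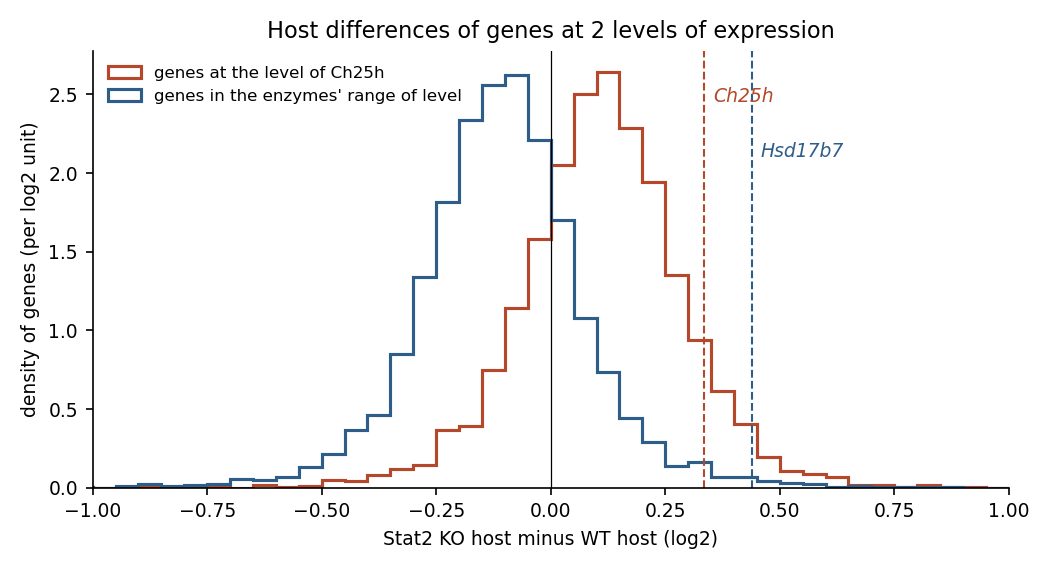
Distribution of the host difference (horizontal axis, log2) as density of genes per log2 unit for the 4030 genes at the level of Ch25h and the 6405 genes within the range of level of the cholesterol synthesis enzymes. Dashed lines mark Ch25h at 0.33 and the enzyme gene Hsd17b7 at 0.44. The 2 distributions are centred on either side of 0, at medians of 0.11 and -0.11.

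Most macrophage markers read lower. Of 16 macrophage and monocyte markers, 14 were lower and 2 higher in Stat2 KO hosts, with a median of -0.25. Only Cd68, C1qb, Lyz2, Mertk and Mrc1 were brighter than the median gene. They differed by -0.61, -0.95, -0.57, -0.16 and -0.038, with a median of -0.57. An unadjusted limma p under 0.05 was reached by 6 of the 16 markers in the lower direction, where 3.48% of all genes did so. It was reached by 1 in the higher direction, where 5.34% of all genes did so, and 0 markers passed the adjusted threshold. The mean of the 16 markers was 6.06, 6.15 and 6.29 in the Stat2 KO hosts, and 6.55, 6.58 and 6.35 in the WT hosts, without overlap. All of these means lie below 6.73, the 95th percentile of the olfactory receptor genes. Signal over background was therefore not shown for the dimmer markers. Fibroblast markers read lower too, in 6 of 7 with a median of -0.41 that was -0.21 without Stat2 KO replicate 2, and 0 passed the adjusted threshold. Their mean was 6.84, 6.37 and 6.65 in the Stat2 KO hosts, and 7.17, 7.23 and 6.89 in the WT hosts, likewise without overlap. In bulk tumours, fewer macrophages and less RNA per macrophage cannot be told apart, and the cells that Ch25h came from were not measured.

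**Figure D3:**
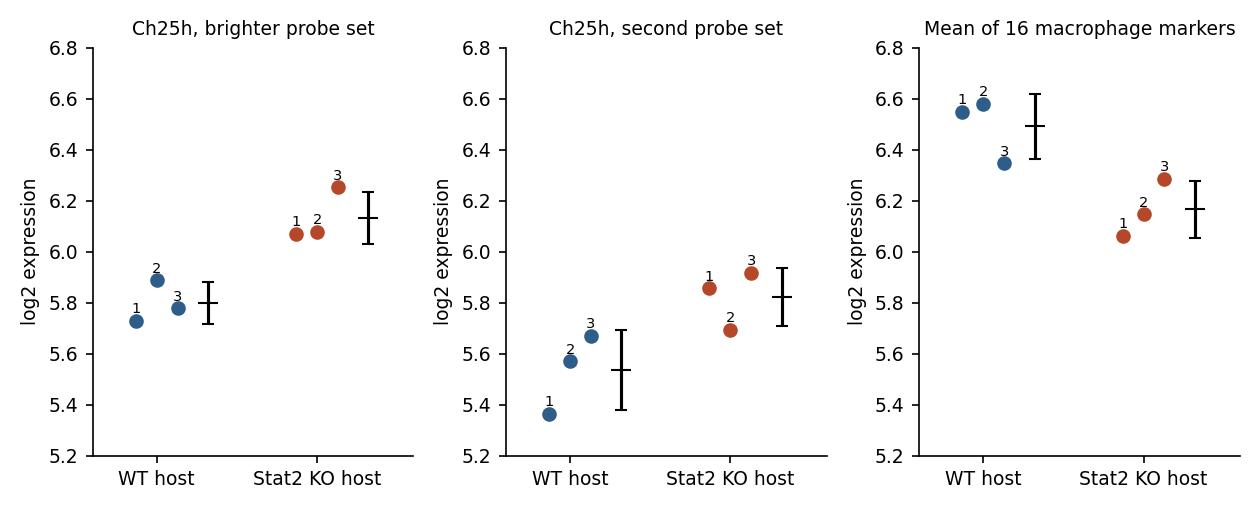
Log2 expression (vertical axis, 5.2 to 6.8) of both Ch25h probe sets and of the mean of 16 macrophage markers in each tumour, by host genotype. Points are tumours numbered by replicate, bars the mean ± SD of 3. Both Ch25h probe sets are higher in all Stat2 KO tumours than in all WT tumours, while the macrophage mean is lower in all of them.

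Most genes induced by type I interferon also read lower. Of 23 measured genes of this list, 19 were lower and 4 higher, with a median of -0.23, and 0 passed the adjusted threshold. An unadjusted p under 0.05 was reached by 7 in the lower direction, Stat2 itself among them, against 3.48% of all genes. Without WT replicate 3 that median was -0.098. The nucleotide kinase gene Cmpk2 differed by -0.91 and Rsad2, which encodes viperin, by -0.73. Ch25h read in the opposite direction to most genes of this list in the same tumours. Stat2 itself differed by -0.31 (6.45, 6.48 and 6.33 against 6.79, 6.70 and 6.70 in WT hosts, limma adjusted p = 0.532). This is a weak check of the labels in tumours whose cancer cells carry no labelled deletion. The mean of Stat2 over all tumours, 6.58, also lay below 6.73, so its signal over background was not shown.

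The other genes of oxysterol handling did not pass either. All 7 listed genes were measured, with 5 higher, 2 lower, a median of 0.16 (0.033 after a further quantile normalization) and 0 past the adjusted threshold. Osbp, an oxysterol-binding protein gene, differed by -0.30, with 8.62, 8.09 and 8.50 in the Stat2 KO hosts, and 8.87, 8.66 and 8.59 in the WT hosts, which overlap. Hsd3b7, an enzyme that acts on hydroxylated sterols, differed by -0.22. Gpr183, the receptor through which an oxysterol made from 25-hydroxycholesterol guides immune cells, differed by 0.20, and Cyp27a1, the sterol 27-hydroxylase, by 0.20. Adjusted p-values of these 4 genes were 0.613, 0.663, 0.701 and 0.754. Cyp27a1 and Gpr183, like Ch25h, were dim. Their means in Stat2 KO and WT hosts were 5.40 and 5.19 for Cyp27a1, and 6.18 and 5.98 for Gpr183.

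The regulator Srebf2 was the member that read lower. Its values were 9.87, 9.59 and 9.46 in the Stat2 KO hosts, and 9.98, 10.04 and 9.60 in the WT hosts. WT replicate 3 lay within the Stat2 KO tumours, so the groups overlapped. The difference was -0.23 (SE 0.163, limma adjusted p = 0.678; exact permutation p = 0.2). It was -0.37 when WT replicate 3 was left out, and -0.15 when either Stat2 KO replicate 3 or WT replicate 2 was. With array weights it was -0.40 (adjusted p = 0.12, range over the alternatives 0.12 to 0.985).

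Insig1, the sterol-dependent brake on SREBP2 and itself a target of it, had a difference of the other sign, and neither difference passed. Within the groups the 2 genes were alike in part. In both, Stat2 KO replicate 1 was the highest and replicate 3 the lowest of the Stat2 KO tumours, and WT replicate 3 the lowest WT tumour. Insig1 read 10.43, 10.35 and 10.25 in the Stat2 KO hosts, and 10.51, 10.31 and 9.96 in the WT hosts. The WT tumours enclosed all Stat2 KO tumours. The difference was 0.082 (SE 0.159, limma adjusted p = 0.885), and it turned to -0.069 without WT replicate 3 and to -0.001 with array weights.

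Among the other genes of sterol sensing, Insig2, the second INSIG gene, read 8.77, 7.80 and 8.77 in the Stat2 KO hosts, and 8.03, 7.86 and 8.39 in the WT hosts. Stat2 KO replicate 2 lay below all WT tumours and the others above them. The difference was 0.35 (adjusted p = 0.677). Rnf145, a ubiquitin ligase gene of sterol homeostasis, differed by 0.29 without overlap of the groups (limma adjusted p = 0.594). In this direction 8.23% of all genes had no overlap. Of 8 measured genes of sterol sensing and SREBP control, 4 were higher and 4 lower, with a median of 0.036, which turned to -0.030 after median centring and to -0.099 with array weights, and 0 past the adjusted threshold. Mbtps1 and Mbtps2, which encode the proteases that release SREBPs in the Golgi, differed by -0.115 and 0.101 (adjusted p = 0.825 and 0.852), both with overlap.

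The member enzymes act early, in the middle and at the end of the pathway. Hmgcs1, which makes HMG-CoA, read 9.64, 8.99 and 9.67 in the Stat2 KO hosts, and 9.42, 9.17 and 9.18 in the WT hosts. The Stat2 KO tumours held both its highest values and its lowest, 8.99 in replicate 2. The difference was 0.18 (SE 0.185, limma adjusted p = 0.78), and without that tumour it was 0.40 (adjusted p = 0.616, range over the alternatives 0.193 to 0.97). Leaving out Stat2 KO replicate 1 or 3 gave 0.072 or 0.057.

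Sqle, the squalene epoxidase that opens the sterol branch, read 10.11, 9.73 and 9.76 in the Stat2 KO hosts, and 9.95, 9.85 and 9.66 in the WT hosts. The groups overlapped, with Stat2 KO replicate 1 the highest tumour and WT replicate 3 the lowest. The difference was 0.046 (SE 0.151, limma adjusted p = 0.932), and its sign turned with the scaling and with single tumours, at -0.020 after median centring and -0.075 without Stat2 KO replicate 1.

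Dhcr7, which turns 7-dehydrocholesterol into cholesterol in the last step, read 8.63, 8.33 and 8.42 in the Stat2 KO hosts, and 8.30, 8.34 and 8.42 in the WT hosts. Stat2 KO replicate 1 stood above the other 5 tumours, which lay close together. The difference was 0.11 (SE 0.135, limma adjusted p = 0.808), 0.027 without that tumour, 0.23 after cyclic loess and 0.225 after a further quantile normalization.

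The list of cholesterol synthesis enzymes has 20 genes, 3 of which (Hmgcs1, Sqle and Dhcr7) are the member enzymes with values. Of the 16 measured, 9 were lower and 7 higher in Stat2 KO hosts, with a median of -0.022. The median was 0.021 over all genes and -0.11 over the 6405 genes in the enzymes' range of level. Higher in Stat2 KO hosts were 43.8% of the enzymes, 54% of all genes and 24.1% of genes in that range. The median of the enzymes turned to 0.074 after a further quantile normalization and to 0.079 after cyclic loess. It was -0.13 without Stat2 KO replicate 1. None passed the adjusted threshold, and 1 of the 16 (6.25%) passed 0.05 unadjusted, Hsd17b7, where 5.34% of all genes and 1.14% of genes in the enzymes' range of level did so in this direction. The mean of the 16 was 8.46 ± 0.231 with Stat2 KO and 8.46 ± 0.097 with WT hosts (SD, n = 3 each), a difference of -0.002. Differences of single enzymes ranged from -0.32 to 0.44.

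**Figure D4:**
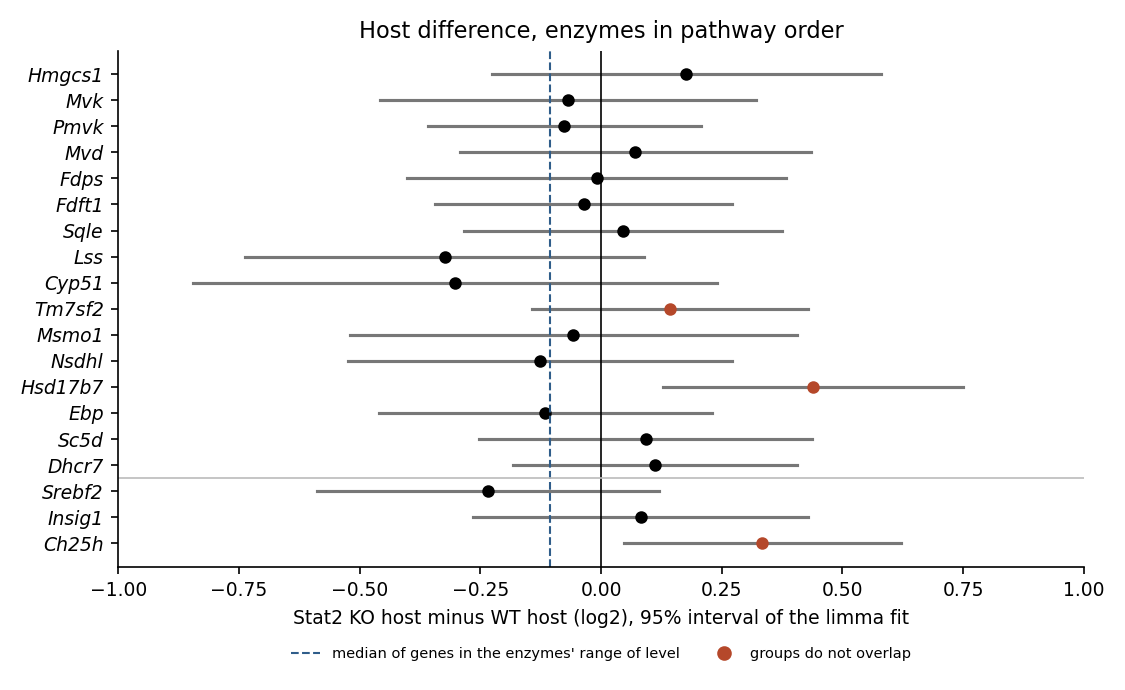
Host difference (horizontal axis, log2) with its 95% interval from the limma fit for the 16 measured cholesterol synthesis enzymes in pathway order and, under the grey line, for Srebf2, Insig1 and Ch25h. Red points are genes whose groups do not overlap, and the dashed line at -0.11 is the median of the 6405 genes in the enzymes' range of level. The intervals of Hsd17b7 and Ch25h lie above 0, and all others cross it.

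In the mevalonate part, Mvk, Pmvk and Mvd, which phosphorylate and decarboxylate mevalonate, differed by -0.068, -0.076 and 0.071. Fdps and Fdft1, which build farnesyl diphosphate and squalene, differed by -0.0090 and -0.036. None of these 5 enzymes differed by more than Pmvk in size, and the sign of Mvk, Mvd, Fdps and Fdft1 turned under at least 1 alternative. Genes in the enzymes' range of level had a median of -0.11.

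In the sterol part the spread was wider. Lss, the lanosterol synthase that closes the sterol rings, read 8.02, 7.58 and 7.63 in the Stat2 KO hosts, and 8.31, 8.25 and 7.65 in the WT hosts. WT replicate 3 lay with the Stat2 KO tumours. The difference was -0.32 (adjusted p = 0.629), and -0.53 without WT replicate 3 (adjusted p = 0.293, range over the alternatives 0.111 to 0.985). Cyp51, the lanosterol demethylase, differed by -0.30 with all tumours, and by 0.038 without Stat2 KO replicate 2, which read 7.68 against 8.34 to 8.89 in the other 5 tumours. Msmo1 and Nsdhl, which remove methyl groups of the sterol, differed by -0.057 and -0.13, and turned to 0.20 and 0.069 without the same tumour.

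Hsd17b7, a ketoreductase of sterol demethylation, gave the lowest p of the enzymes. It read 8.27, 7.95 and 8.13 in the Stat2 KO hosts, and 7.79, 7.72 and 7.52 in the WT hosts. All Stat2 KO tumours lay above all WT tumours, as was so for 8.23% of all genes and 1.45% of the 6405 genes in the enzymes' range of level. The difference was 0.44 (SE 0.142), or 1.36 times the WT level. It did not pass over all genes (limma adjusted p = 0.486, range over the alternatives 0.0714 to 0.908). Its difference stayed between 0.36 and 0.55 over the 15 alternatives that were run for it, several of which cannot change a difference. Tm7sf2, a sterol reductase, was the other enzyme whose groups did not overlap, at 0.14 (limma adjusted p = 0.747). That made 12.5% of the 16 enzymes, against the same shares. Ebp, the sterol isomerase, and Sc5d, the desaturase before Dhcr7, differed by -0.12 and 0.093.

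The enzymes varied more between Stat2 KO tumours than between the genotypes. With each enzyme centred on its mean over the 6 tumours, the 16 averaged 0.24, -0.22 and -0.019 in Stat2 KO replicates 1, 2 and 3. They averaged 0.059, 0.055 and -0.11 in WT replicates 1, 2 and 3. Stat2 KO replicate 1 was the highest tumour for 10 of the 16 enzymes, against 22.4% of genes in their range of level. Stat2 KO replicate 2 was the lowest for 9 of them, against 49.3% of those genes, so its low values were shared with genes of like level. Without it, the mean of the enzymes was 0.11 higher in Stat2 KO than in WT hosts (n = 2 and 3), and their median difference was 0.13.

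**Figure D5:**
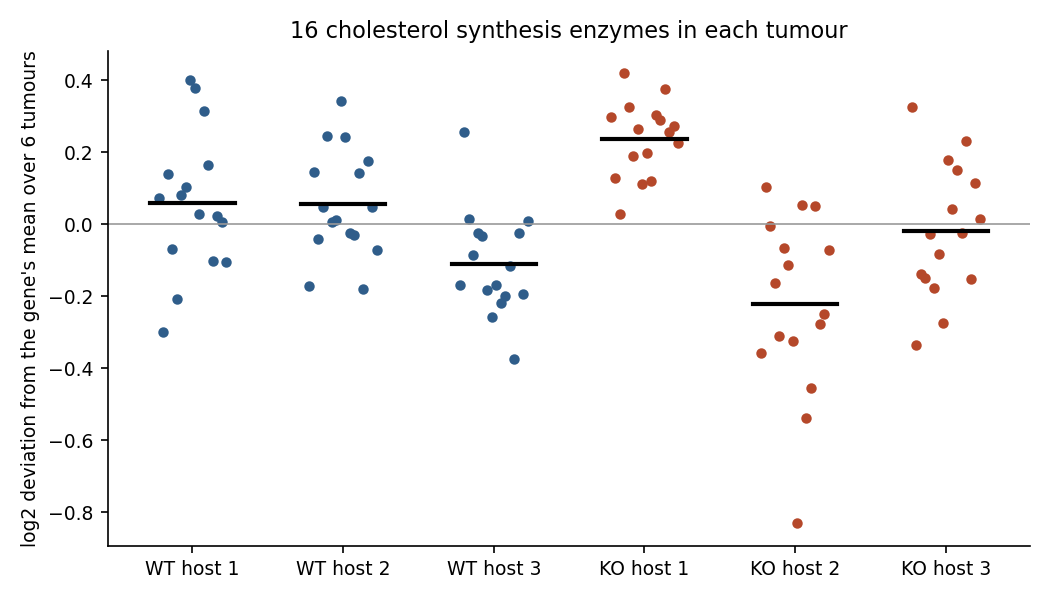
Log2 deviation (vertical axis) of each of the 16 measured cholesterol synthesis enzymes from its own mean over 6 tumours, by tumour. Points are enzymes and black bars their mean. All enzymes are above their own mean in Stat2 KO replicate 1 (bar at 0.24), and the bar of Stat2 KO replicate 2 is at -0.22.

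Pigment genes of the melanoma cells also read low in Stat2 KO replicate 2. The 8 melanocyte markers, with mean levels from 7.98 (Gpr143) to 13.2 (Dct), matched the labelled tumour type, and averaged -0.44 in Stat2 KO replicate 2 against -0.099 to 0.21 in the other 5 tumours. Fibroblast markers averaged -0.49 there. The part of these shifts in the enzyme values was not tested.

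Uptake, transport and efflux genes gave no gene past the adjusted threshold. Of 9 measured genes of sterol uptake and transport, 5 were lower and 4 higher, with a median of -0.12 that shrank to -0.043 or -0.038 when Stat2 KO replicate 2 or 3 was left out. Lrp1, a lipoprotein receptor, read 7.58, 7.46 and 7.18 in the Stat2 KO hosts, and 7.86, 7.86 and 7.60 in the WT hosts. These did not overlap, by a small margin. In this direction that was so for 5.11% of all genes. It was so for 9.18% of genes in the enzymes' range of level, where Lrp1 lies. The difference was -0.36 (adjusted p = 0.538). Stard4, a sterol carrier and SREBP2 target, differed by 0.35 with overlap (adjusted p = 0.551), opposite to the cholesterol exporters of the lysosome Npc1 and Npc2, at -0.28 and -0.31 (adjusted p = 0.655 and 0.616). Of 6 measured genes of the LXR and efflux list, 4 were higher and 2 lower, with a median of 0.043, or -0.023 after median centring. Abca1, which exports cholesterol, differed by 0.12, and Apoc1, an apolipoprotein gene, by 0.28. Apoc1 was dim, with means of 5.75 in Stat2 KO and 5.47 in WT hosts. Fatty acid synthesis genes, served by the related SREBP1, were lower in 6 of 9 with a median of -0.059, which turned to 0.060 after a further quantile normalization and 0.055 after cyclic loess. The desaturase gene Scd1 differed by -0.37 (adjusted p = 0.628) and the elongase gene Elovl6 by 0.17.

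The genes nearest to Ch25h in pattern were looked for among the 11090 genes brighter than the median gene, by the root mean square difference of centred log2 values over the 6 arrays. The 5 nearest were Mroh5 (0.022), Snord52 (0.046), Ccdc157 (0.052), Snora41 (0.056) and Gm6745 (0.059). Of the enzymes, Tm7sf2 and Hsd17b7 were nearest, at 0.15 and 0.16. For the mean profile of Hmgcs1, Sqle, Insig1 and Dhcr7, the nearest 5 were Rnf167 (0.031), Golgb1 (0.034), Herc3 (0.036), Uevld (0.037) and Zdhhc20 (0.039). Sc5d at 0.079 was the nearest of the other enzymes. With 6 arrays and this many genes, close patterns arise readily, and the distances are a description.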

How the data were processed

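Total RNA of 6 tumours was hybridized to Affymetrix arrays. The authors deposited log2 expression values for each probe set. The submitters' processing notes name RMA and Affymetrix Expression Console 1.3.1 as their tools, and no genome build. Of 41345 probe sets, 23521 name 1 gene, 1814 several and 16010 none, and these gave 22180 genes.

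Differences were fitted across all genes with limma 3.58.1 in R 4.3.3 (lmFit, eBayes with trend, two-sided, Benjamini-Hochberg adjustment, threshold 0.05), with 4 residual and 8.14 prior degrees of freedom. Dim probe sets were kept. Detection calls were not used here, and the number of arrays limits the precision. Whether the tumours came from separate mice is not stated in the labels, and p-values cover only the spread between these tumours. Array medians over genes were 6.27 to 6.44, and correlations between arrays 0.964 to 0.986.

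The text names the members, Stat2, the synthesis enzymes, up to 4 genes of each pathway list by smallest p and the 5 nearest patterns. Marker genes and Cyp7b1 are named where they set the range or the make-up of a list. Members and lists were chosen with earlier results of these data known. The 7 pathway lists and 10 marker lists hold 161 genes, 144 of them measured. The marker lists of dendritic cells, keratinocytes, skeletal muscle, T cells, neutrophils, sebaceous gland and adipocytes, and endothelial cells had median differences of 0.168, 0.115, 0.234, 0.089, 0.105, 0.080 and 0.042. After a further quantile normalization or cyclic loess, those of keratinocytes (0.001 and -0.005), T cells (-0.020 and -0.025), neutrophils (-0.005 and -0.007), and sebaceous gland and adipocytes (-0.016 and -0.012) lay near 0; that of endothelial cells was -0.024 after median centring.

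In simulated data with 22180 genes the fit recovered 72 of 100 genes that had been moved by 1 log2 unit. It recovered 97 of 100 moved by 2, with 2 false among 171 calls in all. Recovery of smaller moves, such as the differences of the members and enzymes (-0.32 to 0.44), was not tested. Alternatives were other normalizations, a brightness filter, other probe set and variance rules, array weights, a replicate block and leaving out each tumour. The second Ch25h probe set was added after the data were seen.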

Additional observations from a re-analysis of the deposited data

How the results depend on the processing

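With 15 alternatives for each, the differences of Stat2, the members and the enzymes gave 300 values: 270 kept their direction, 30 turned it, and 0 crossed the adjusted threshold. Ch25h stayed between 0.23 and 0.38, with an unadjusted limma p under 0.05 in 8 of 15, some of which refit the same difference. That p was 0.0842 after a further quantile normalization, 0.0551 after median centring and 0.0898 after cyclic loess. The second probe set gave 0.0656. The replicate block gave 0.33 for Ch25h (limma adjusted p = 0.393) and -0.23 for Srebf2 and changed no call. Deviations of same-numbered tumours correlated at 0.24, 0.079 and 0.030, and those of differently numbered tumours at -0.289 to 0.205. With 3 tumours in each group these values cannot decide on pairing. The labels name no pairs, so the numbers were not taken as pairs. Sqle turned to -0.020 after median centring and -0.029 with array weights, and Insig1 to -0.001 with array weights. After a further quantile normalization Mvk, Fdps, Fdft1, Msmo1 and Ebp were 0.025, 0.088, 0.060, 0.029 and 0.002, and after cyclic loess 0.026, 0.089, 0.069, 0.059 and 0.002. In the same order of normalizations Hmgcs1 was 0.264 and 0.285, Sqle 0.128 and 0.144, Insig1 0.146 and 0.167, Tm7sf2 0.256 and 0.242, and Srebf2 -0.161 and -0.134. With array weights Hmgcs1 was 0.338, Mvd -0.057 and Msmo1 0.058. With each tumour left out in turn, the ranges were -0.075 to 0.113 for Sqle, -0.069 to 0.208 for Insig1, -0.234 to 0.083 for Mvk, -0.121 to 0.170 for Mvd, -0.174 to 0.145 for Fdps, -0.140 to 0.043 for Fdft1, -0.477 to 0.038 for Cyp51, -0.223 to 0.198 for Msmo1, -0.304 to 0.069 for Nsdhl and -0.022 to 0.240 for Sc5d. The cause was not tested.

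Of all genes tested, 2 passed, against 0 after quantile normalization, 1 after cyclic loess, 1 without the trend, 257 with array weights and 0 to 17 with each tumour left out (17 without WT replicate 3). Members and enzymes past the threshold numbered 0 throughout. The median of the sterol sensing list was -0.099 with array weights and ranged from -0.076 to 0.134 with each tumour left out. That of the oxysterol list was 0.033 after quantile normalization, 0.090 after median centring, 0.035 after cyclic loess, -0.222 among genes brighter than the median gene, where Ch25h, Cyp7b1, Cyp27a1 and Gpr183 drop out and 3 genes are left, and 0.055 to 0.240 with each tumour left out. That of the interferon list ranged from -0.326 to -0.098. The keratinocyte, T cell and neutrophil lists hold no gene brighter than the median gene, so that setting gave them no value. In the sebaceous gland and adipocyte list Fabp4 alone was brighter than the median gene. The -0.613 of that list there is the difference of this single gene, whose groups overlapped. Signal over background is unknown, which limits what can be said of Ch25h and other dim genes.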
